A study of Mus musculus with 6 samples.

Results

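Keratins 5, 14, 15, 6a, 6b, 16, 17 and 75 are the intermediate filament proteins of the basal layer and of injured or growing stratified epithelium. They were chosen by gene symbol, with no measured value in the rule, but with earlier results of these data known. All 8 were found among the 55421 genes of the deposited table. RNA was measured in the peeled tongue epithelium of 6 mice, 1 library per mouse, with a kit that counts 1 tag near the 3' end of each mRNA. The WT group was 3 mice of genotype IRE1F/F, whose Ire1α gene (Ern1) is flanked by loxP sites and which have no Cre. The KO group was 3 littermates of genotype K14CreERT2 IRE1 F/F, which carry the same alleles and, from the keratin 14 promoter, a Cre that tamoxifen activates. All mice of both groups received tamoxifen on 4 days and were harvested on day 5. Tissue of all 6 mice was digested for 10 min at 37 °C. Age and sex are not given in the labels used here. The series was made to ask what the tongue lining loses or changes without Ire1α, which senses misfolded proteins in the endoplasmic reticulum.

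Keratin filaments are built from pairs of 1 type I and 1 type II keratin. In stratified epithelium the basal layer makes Krt5 (type II) with Krt14 and Krt15 (type I). Krt6a, Krt6b and Krt75 (type II) and Krt16 and Krt17 (type I) are known from hair follicles, nails, oral epithelium and wound edges, where injury switches them on. The tongue differs from resting skin in that it makes Krt6 and Krt16 without injury, in and around its filiform papillae.

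The members resemble one another closely in sequence, which matters for a measurement by short tags. The coding parts of Krt6a and Krt6b were 97.6% identical, and those of Krt14 and Krt16 83.7% identical, in the GENCODE M21 transcripts. The stretch that encodes the end of the central rod domain shows this. Below are the 71 coding bases shared by Krt14 and Krt17, with the matching bases of the other type I members. Capitals mark bases that differ from the first sequence.
Krt14: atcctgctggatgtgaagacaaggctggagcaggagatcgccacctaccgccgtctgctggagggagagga
Krt17: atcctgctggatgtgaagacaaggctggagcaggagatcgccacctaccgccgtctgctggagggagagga
Krt16: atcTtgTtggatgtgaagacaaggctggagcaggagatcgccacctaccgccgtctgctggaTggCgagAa
Krt15: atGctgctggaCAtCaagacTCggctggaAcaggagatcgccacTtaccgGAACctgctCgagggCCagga
Krt16 and Krt15 differed from Krt14 at 5 and 15 of these bases.

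The kit counts tags near the 3' end, and their exact positions are not known here. The stretch above ends 319, 312 and 291 bases before the transcript end in Krt14, Krt17 and Krt16. It therefore lies within the last 400 bases of these 3 transcripts. The 3' untranslated parts further downstream are less alike. The 3' untranslated parts of Krt6a and Krt6b were 71.9% identical, and none of the 351 words of 50 bases in the last 400 bases of either transcript occurred in a transcript of another gene. The same held for Krt5, Krt15 and Krt75. In Krt14 and Krt17, 22 of 351 words (6.27%) also occurred in each other or in Krt16, and in Krt16 18 of 351 (5.13%) occurred in Krt14, Krt17 or the pseudogene Gm11597, which was listed at 0 in all 6 libraries. How the authors' counting treated reads that fit more than 1 gene is not given, so values of Krt14, Krt16 and Krt17 carry that uncertainty for tags from this coding stretch. Gm49428, antisense to Krt6a, was also listed at 0 throughout.

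Libraries held 4606309 to 6286153 reads. For the targeted gene Ern1 the normalised count was 102, 105 and 77.1 in the WT libraries (replicates 1 to 3, in that order here and below) against 78.0, 117 and 123 in the KO libraries (limma adjusted p = 0.847). The labels do not name the deleted exons, so whether the 3' tags lie outside them is not known here. These values do not show the deletion and cannot check the genotype. Krt13 and Krt4, the keratin pair of mucosal suprabasal cells, were abundant in every library (228829 to 328701 and 112709 to 240543), while the taste bud keratins Krt8 and Krt18 were at or below 2.62. Skeletal muscle markers were highest in KO replicate 1, where the 12 genes summed to 2154 against 135 to 325 in WT and 99.97 and 445 in KO replicates 2 and 3. Acta1 and Tnnc2 of that list were at 0 in all libraries. The 9 fibroblast markers summed to 1377 to 1882 in WT and 215 to 1120 in KO, and Dcn among them, which encodes the matrix protein decorin, fell from 1658, 1329 and 1856 to 530, 195 and 544 (limma adjusted p = 0.0152). Without Dcn the other 8 summed to 44.3, 48.0 and 26.1 in WT against 590, 19.8 and 34.3 in KO, and the collagen gene Col1a1 was at 9.42 to 12.2 in WT against 190, 3.45 and 14.3 in KO, so KO replicate 1 was the highest library for these as it was for muscle. Marker sums in WT and KO were 22.2 to 33.9 and 46.7 to 68.3 for endothelium, 532 to 868 and 566 to 961 for leukocytes, and 8.48 to 15.7 and 14.1 to 18.1 for taste buds. They were 24.4 to 70.7 and 13.8 to 67.7 for salivary gland, 431 to 611 and 413 to 591 for nerve and glia, and 5.22 to 15.1 and 7.62 to 36.8 for hair follicle, with Bpifa2, Smr3a, Prb1, Dcpp1 and Tchh at 0 in all libraries. The part of these other cells in the results below was not tested. The library names come in 2 styles, digits for WT replicates 1 and 2 and KO replicate 1 and letters for the others, and the labels do not say what the style means.

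Together the 8 keratins took 4.41%, 4.10% and 4.32% of the tags in the WT libraries, against 9.06%, 7.85% and 7.52% in the KO libraries. The mean share was 4.27% ± 0.16 (SD, n = 3) in WT and 8.14% ± 0.81 (SD, n = 3) in KO. Every KO library lay above every WT library. Krt6a and Krt6b supplied 74.7% to 78.3% of those tags in all 6 libraries. The other 46 keratin genes together took 9.88% to 12.2% in WT and 9.41% to 12.6% in KO, so the groups overlapped there. Krt13 and Krt4 held most of that sum, with log2 fold changes of 0.04 and 0.06, so it says little about the rest. Among the members, the summed type I value was 0.257 to 0.313 times the summed type II value in WT and 0.250 to 0.279 times in KO, and these ranges overlapped too. Fewer cells of a type and less RNA per cell cannot be told apart in such bulk samples.

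**Figure D1:**
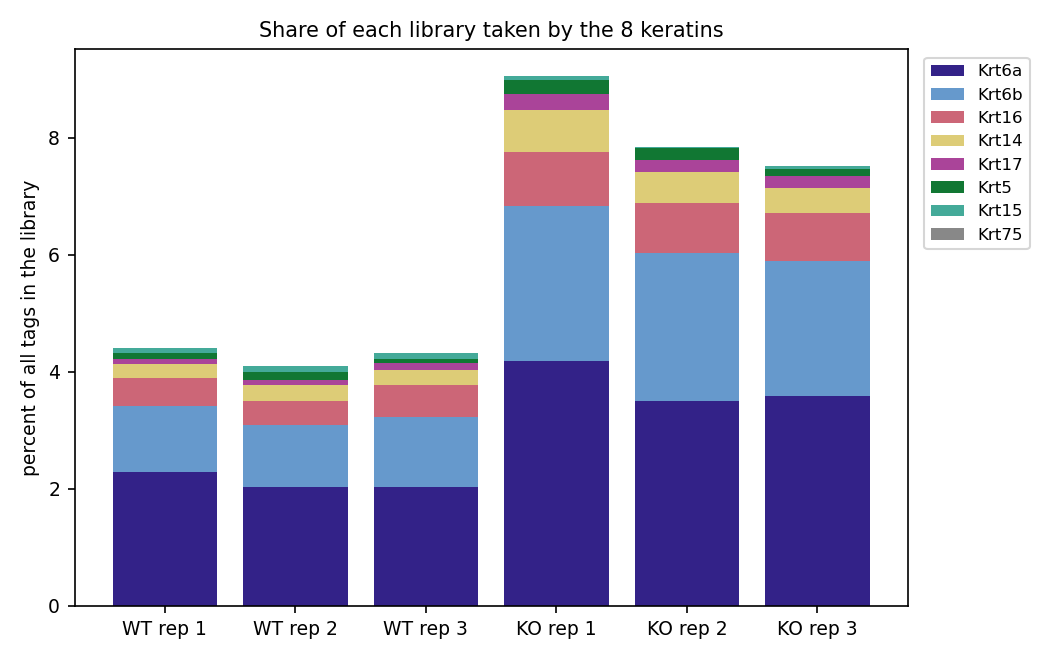
Percent of all tags in each library (vertical axis) taken by the 8 keratins, 1 stacked bar per library and 1 colour per gene. The bars reach 4.10% to 4.41% in WT and 7.52% to 9.06% in KO, and Krt6a and Krt6b fill most of each.

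Of the 8 keratins, 7 had a higher mean in KO and 1, Krt15, a lower one. Only Krt17 rose by limma with adjustment over all 10987 genes tested, where 1.8% of all genes were called (1.22% higher and 0.583% lower). All 8 had an unadjusted p under 0.05, which 13.5% of tested genes had. In 6 of the 8 every KO library lay above every WT library, as in 9.84% of tested genes, and in Krt15 every KO library lay below, as in 9.25% (19.1% in either direction). The median log2 fold change of the 8 was 0.96, against -0.0083 over all tested genes. The count test edgeR on the recovered reads called Krt6b and Krt17 higher (1.73% of all genes called, 1.14% higher and 0.592% lower). DESeq2 called 7, all but Krt75, of which Krt15 was lower (2.98% called, 1.68% higher and 1.29% lower). The authors' deposited table of 341 genes also lists all but Krt75.

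**Figure D2:**
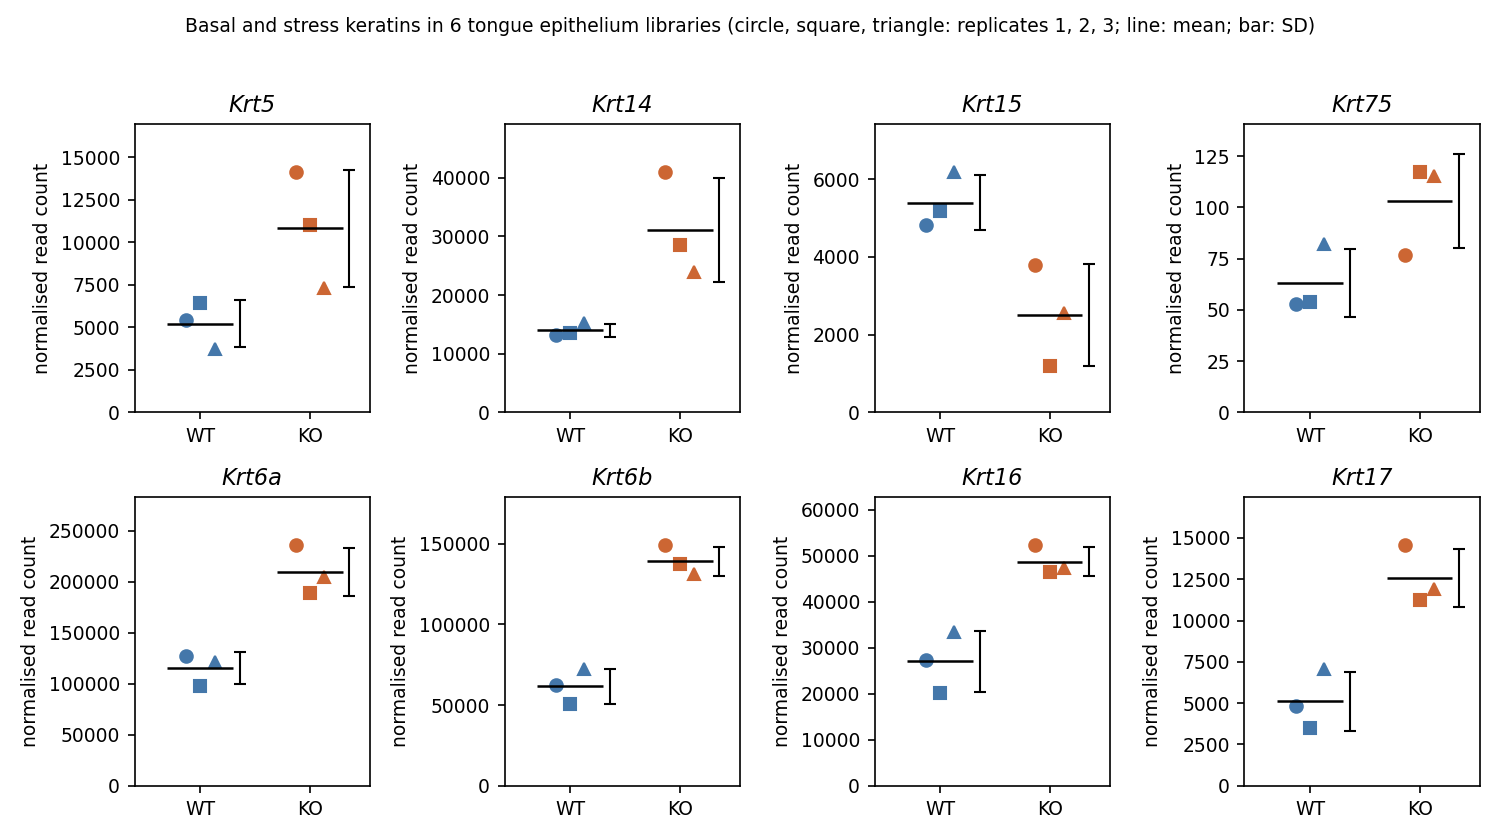
Normalised read count (vertical axes, each from 0) of the 8 keratins in WT and KO libraries, with replicates 1, 2 and 3 as circle, square and triangle, the group mean as a line and the SD as a bar. Krt15 is the only panel in which the KO points lie lower, and Krt75 the only one in which the groups overlap.

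Krt5, the type II keratin of basal cells (chromosome 15, 101707070 to 101712898, minus strand; this and the coordinates below are GRCm38 from GENCODE M21, matched by identifier, since the authors' build is not given), had normalised counts of 5459, 6465 and 3726 in WT against 14131, 11038 and 7304 in KO. KO replicate 1 was the highest and WT replicate 3 the lowest, and the groups did not overlap, although KO replicate 3 was only 1.13 times WT replicate 2. The mean was 5217 ± 1386 in WT and 10824 ± 3419 in KO (SD, n = 3 each), or 1.04 ± 0.29 (SE) as a log2 fold change (95% interval 0.40 to 1.68). This missed the threshold (limma adjusted p = 0.118).

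Krt14, the type I partner of Krt5 (chromosome 11, 100203162 to 100207548, minus strand), measured 13185, 13505 and 15243 in WT against 40922, 28447 and 23878 in KO. The SD was 7.92% of the mean in WT and 28.4% in KO, where replicate 1 was the highest, and the groups did not overlap. Its log2 fold change was 1.12 ± 0.26 (SE), with a 95% interval of 0.54 to 1.70, and did not pass (limma adjusted p = 0.0694). It passed with equal library totals (0.0394), quantile normalisation (0.0415) or robust variance moderation (0.0371), and DESeq2 called it (3.1e-05). The Cre is driven by this gene's promoter and is present in KO mice alone, and the labels do not describe the 3' end of the transgene.

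Krt15, a type I keratin of basal cells that is known as a marker of slowly cycling and stem-like cells (chromosome 11, 100131758 to 100135928, minus strand), went the other way. It measured 4815, 5183 and 6177 in WT against 3803, 1183 and 2563 in KO. KO replicate 2 was the lowest and KO replicate 1 lay nearest to WT. The mean of 5392 ± 705 in WT was 2.14 times the 2516 ± 1310 in KO (SD, n = 3 each), and the log2 fold change was -1.25 ± 0.35 (SE), 95% interval -2.03 to -0.47, which did not pass (limma adjusted p = 0.123). The change was -0.78 when KO replicate 2 was left out. DESeq2 called it lower (0.0228).

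Among the stress keratins, Krt6a (chromosome 15, 101689910 to 101694307, minus strand) had the most tags of the 8 in every library. It measured 127663, 97902 and 121794 in WT against 235885, 189326 and 204380 in KO. The groups did not overlap, and at 0.86 ± 0.36 (SE; 95% interval 0.07 to 1.65) the log2 fold change missed the threshold (limma adjusted p = 0.323). With quantile normalisation, which forces the libraries to 1 distribution, it was 0.48.

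Krt6b, the near copy of Krt6a (chromosome 15, 101676023 to 101680287, minus strand), measured 62222, 50405 and 72109 in WT against 149086, 137406 and 131473 in KO. The lowest KO library was 1.82 times the highest WT library, the widest gap among the 7 keratins that were higher in KO. At 1.19 ± 0.32 (SE; 95% interval 0.48 to 1.90) its log2 fold change missed the threshold with limma (adjusted p = 0.106). It passed with edgeR (0.0421), DESeq2 (1.7e-07), equal library totals (0.0152), quantile normalisation (0.0436), robust variance moderation (0.0302) and no intensity trend (0.0440).

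Krt16, a type I keratin that pairs with Krt6 (chromosome 11, 100246091 to 100248902, minus strand), measured 27372, 20183 and 33454 in WT against 52235, 46381 and 47338 in KO. The groups did not overlap, and the SD was 6.45% of the mean in KO and 24.6% in WT. The log2 fold change was 0.88 ± 0.28 (SE), 95% interval 0.26 to 1.50, and did not pass (limma adjusted p = 0.177).

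Krt17, a type I keratin induced at wound edges and made in hair follicles (chromosome 11, 100256217 to 100261029, minus strand), measured 4802, 3475 and 7035 in WT against 14549, 11240 and 11914 in KO. WT replicate 3 was the highest WT library and still lay 1.60-fold below the lowest KO library. Krt17 rose by a log2 fold change of 1.35 ± 0.27 (SE), 95% interval 0.76 to 1.94 (limma adjusted p = 0.0334). The call held without WT replicate 3 (0.00788) and was lost when any other library was left out (adjusted p from 0.0586 to 0.140), with no intensity trend (0.0844) and with the library name style as a covariate (0.0989). Over those fits the log2 fold change stayed between 1.10 and 1.61.

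Krt75, a type II keratin of the hair follicle companion layer and of growing nail and papillae (chromosome 15, 101563345 to 101573904, minus strand), was the only member at a low level. It measured 52.8, 54.1 and 82.3 in WT against 76.9, 117 and 115 in KO. KO replicate 1 lay below WT replicate 3, so the groups overlapped. The log2 fold change of 0.71 ± 0.26 (SE), 95% interval 0.14 to 1.28, did not pass in limma (adjusted p = 0.243), edgeR (0.242) or DESeq2 (0.315).

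Within each style of library name the sign was the same as in the whole for all 8 keratins. Among the libraries named by digits, KO replicate 1 exceeded the mean of WT replicates 1 and 2 by 1.62 log2 units for Krt14, 1.83 for Krt17 and 1.15 for Krt16. Among those named by letters, KO replicates 2 and 3 exceeded WT replicate 3 by 0.77, 0.72 and 0.49 for the same genes. Krt5 was nearly equal in both (1.25 and 1.27). Krt15 differed most, at -0.39 among the first and -1.83 among the second. Each style holds a single library of 1 genotype, so these are values with no test. KO replicate 1, in which Krt5, Krt14, Krt15, Krt6a, Krt6b, Krt16 and Krt17 were highest of the KO group, was also the library with the most muscle and collagen transcripts, and their part in the result was not tested. Without it the log2 fold changes were 0.82 for Krt5, 0.90 for Krt14, -1.62 for Krt15, 0.77 for Krt6a, 1.14 for Krt6b, 0.83 for Krt16 and 1.24 for Krt17, none with an adjusted p under 0.05.

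Then 6 pairs of the keratins were compared within each library, where sequencing depth cancels. Of these, 4 join a type I with a type II keratin, while Krt17 and Krt14 are both type I and Krt6b and Krt6a both type II. The ratio of Krt14 to Krt5 was 2.42, 2.09 and 4.09 in WT against 2.90, 2.58 and 3.27 in KO. All 3 KO ratios lay inside the WT range, and the log2 ratio differed by 0.08 (exact permutation p = 0.9). The ratio of Krt16 to Krt6a was 0.206 to 0.275 in WT and 0.221 to 0.245 in KO, a difference of 0.02 on the log2 scale (exact permutation p = 0.9). The ratio of Krt17 to Krt6b differed by 0.16 (exact permutation p = 0.4) and that of Krt17 to Krt14 by 0.23 (exact permutation p = 0.5), with overlapping groups in each. Without WT replicate 3 the groups no longer overlapped for Krt14 to Krt5 (0.37), Krt16 to Krt6a (0.15) and Krt17 to Krt6b (0.30), each higher in KO. These p-values do not show that the ratios were equal.

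The ratio of Krt15 to Krt5 stood apart. It was 0.882, 0.802 and 1.66 in WT against 0.269, 0.107 and 0.351 in KO. The highest KO ratio was below the lowest WT ratio, and the log2 ratio differed by -2.28 (exact permutation p = 0.1, 0.3 after adjustment over the 6 pairs). The ratio of Krt6b to its near copy Krt6a was 0.487, 0.515 and 0.592 in WT against 0.632, 0.726 and 0.643 in KO, a difference of 0.33 log2 units with no overlap (exact permutation p = 0.1, 0.3 after adjustment). With 3 mice against 3 this two-sided test cannot go below 0.1. Across the 6 fits that left out 1 library, the Krt15 to Krt5 difference ranged from -2.63 to -1.78 and the Krt6b to Krt6a difference from 0.27 to 0.41.

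**Figure D3:**
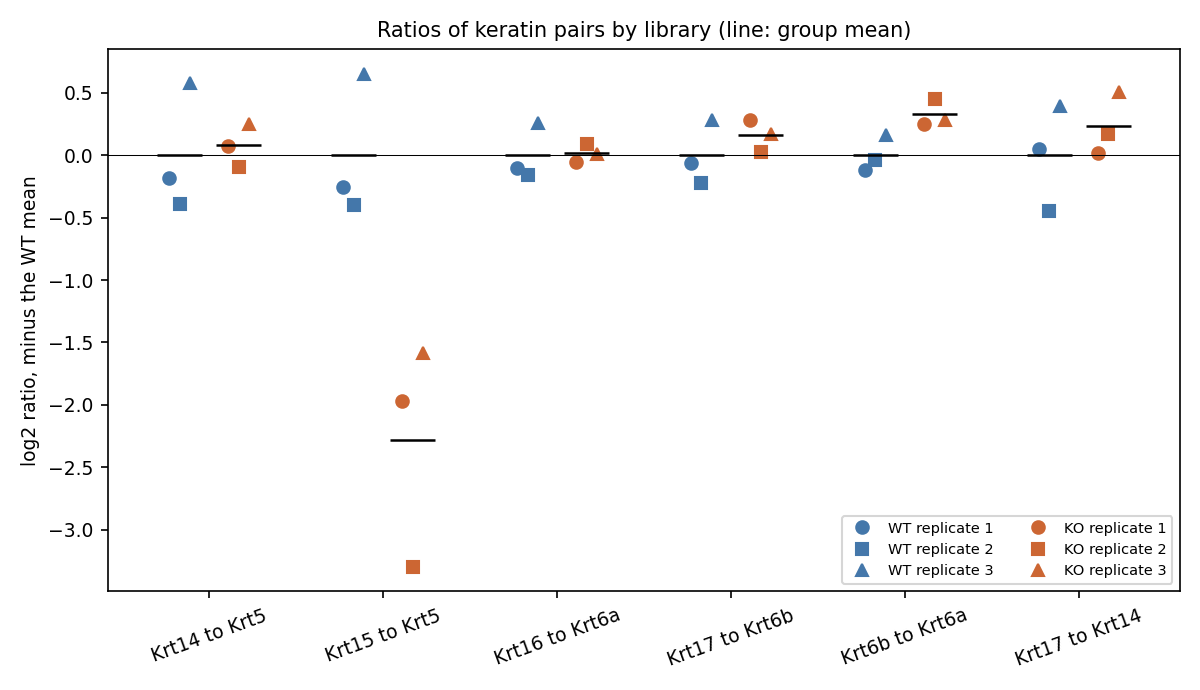
Log2 ratio of 6 keratin pairs in each library, minus the WT mean of that pair (vertical axis), with WT and KO in 2 colours, replicates as circle, square and triangle, and group means as lines. The KO points of Krt15 to Krt5 lie well below all WT points, those of Krt6b to Krt6a lie slightly above, and the other 4 pairs overlap.

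Over the 6 libraries Krt16 and Krt17, which are neighbours in the genome, followed each other most closely of all member pairs (Pearson r = 0.996 on the log2 scale), and Krt6b had r = 0.978 with Krt6a and Krt16 and 0.982 with Krt17. Krt15 had a negative r with each of the other 7, from -0.58 with Krt14 and Krt17 to -0.76 with Krt75. The 6 points share the 2 genotypes and the library sizes, so these r describe the libraries and carry no p. Among 6855 other genes with a mean of at least 50, the pattern most like Krt5 was that of Flii (0.995), followed by Itga6 (0.994), the hemidesmosome integrin subunit. For Krt14 it was Duox1 (0.989), an epithelial NADPH oxidase, for Krt15 S1pr5 (0.992), a sphingosine 1-phosphate receptor, for Krt6b Gria3 (0.996), for Krt17 Rab34 (0.997) and for Krt75 Nuak2 (0.994), a kinase.

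The type I members lie together on chromosome 11 and the type II members on chromosome 15. On chromosome 11 the order is Krt13, Krt15, Krt19, Krt9, Krt14, Krt16, Krt17 and Krt42. Krt15 had -1.25 while its neighbour Krt13, the type I keratin of suprabasal mucosa, had 0.04 ± 0.42 (SE; limma adjusted p = 0.981). Krt19, a keratin of simple epithelia and some basal cells on the other side, was low, at 3.49 to 10.4 in WT against 6.67 to 22.8 in KO (limma adjusted p = 0.479), and Krt9, a keratin of sole skin, was at most 3.92. Krt42, next to Krt17, had 0.88 ± 0.30 (SE; limma adjusted p = 0.211).

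On chromosome 15 the order is Krt90, Krt75, Krt6b, Krt6a, Krt5 and Krt71, with pseudogenes and predicted genes between Krt75 and Krt6b. Krt90, the neighbour of Krt75, rose from 39.6, 51.5 and 74.4 to 145, 162 and 202, by 1.64 ± 0.26 (SE) on the log2 scale (limma adjusted p = 0.0105). It did not pass without WT replicate 2 or without KO replicate 3 (highest adjusted p = 0.0654). Krt71, an inner root sheath keratin next to Krt5, was listed at 0 in WT and at 6.50, 0.862 and 1.91 in KO.

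**Figure D4:**
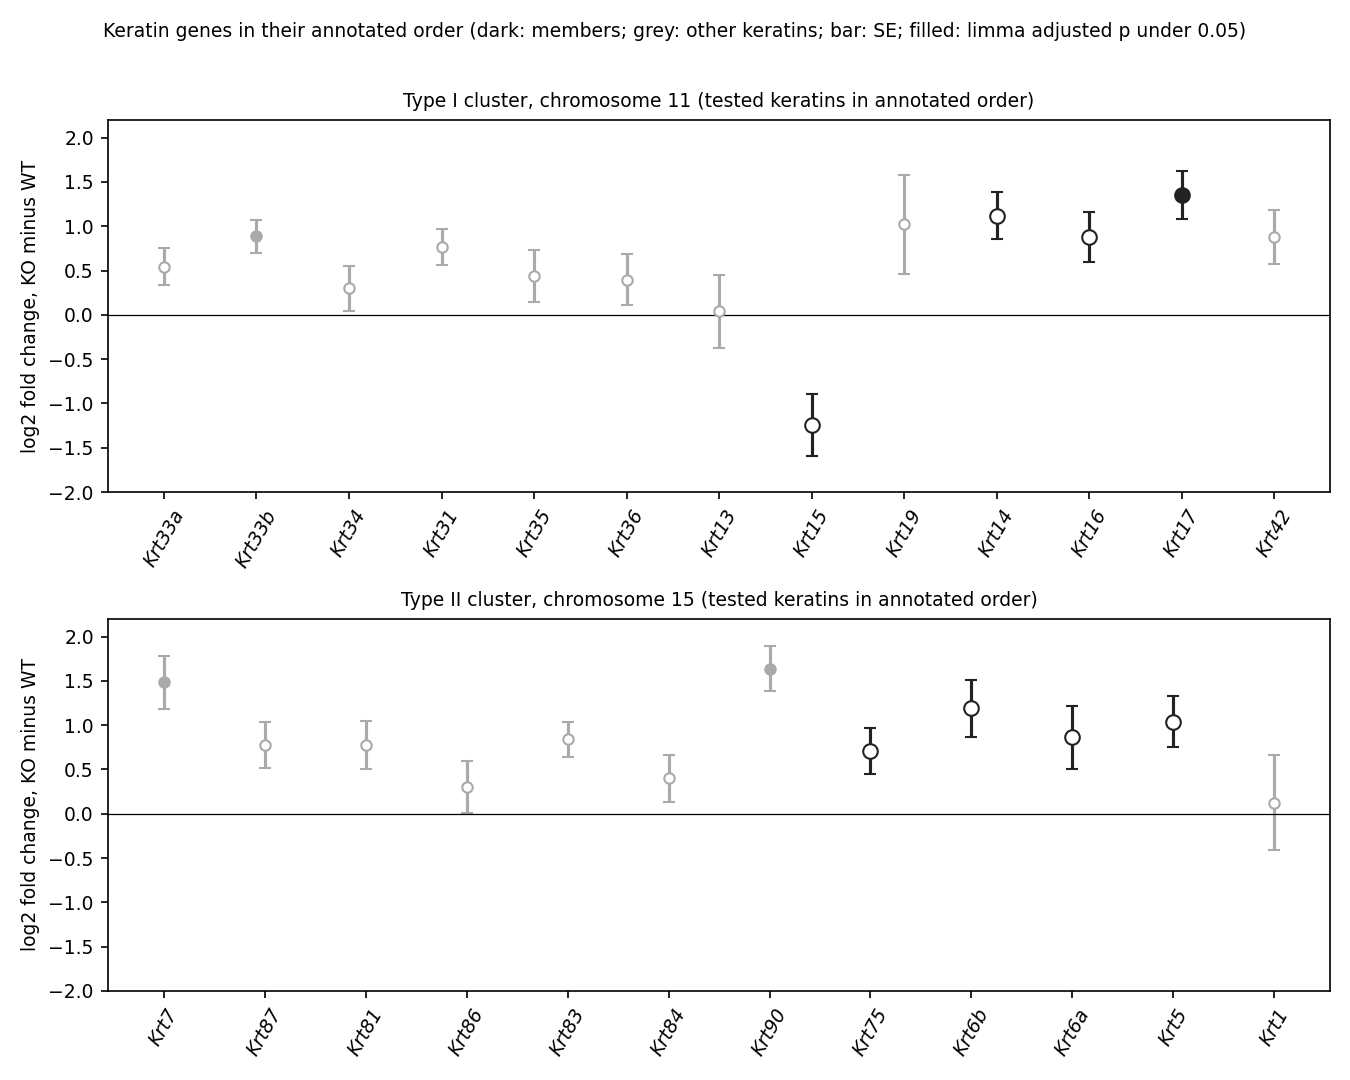
Log2 fold change of KO against WT with its SE (vertical axes) for the tested keratin genes within 150 kb of the members, in annotated order along the type I cluster (upper) and the type II cluster (lower). Members are dark and other keratins grey, and filled points passed limma at an adjusted p under 0.05, among them Krt17, Krt90, Krt7 and Krt33b. Krt15 is the only point far below 0.

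Of the other 46 keratin genes 26 were tested. With limma 3 rose, 0 fell and 23 missed the threshold, where 1.8% of all genes were called. Their median log2 fold change was 0.38, and 20 of the 26 were positive. In 11 of the 26 the groups did not overlap, in either direction, as in 19.1% of all tested genes. Besides Krt90 the called ones were Krt7, a keratin of simple epithelia, from 18.8, 24.4 and 39.2 to 79.1, 85.3 and 62.9 (limma adjusted p = 0.0354), and Krt33b, a hair-type keratin (0.0404). Krt7 passed in 1 of the 6 fits that left out 1 library, that without WT replicate 3 (highest adjusted p = 0.130), and Krt33b in none of them (0.155). Both were also lost with no intensity trend, the replicate number as a block and the library name style as a covariate. With edgeR 2 of the 26 were called higher, and Krt33b was not (edgeR adjusted p = 0.0515). DESeq2 called 6 of the other keratins higher and 2 lower (1.68% and 1.29% of all genes). Besides the 3 above, Krt83 (DESeq2 adjusted p = 0.00725, limma 0.0713), Krt31 (0.00747 and 0.0958) and Krt81 (0.0230 and 0.225) were higher. The lower ones were Krt24, at 8075, 6009 and 7519 in WT against 3890, 2450 and 4230 in KO, and Krt79, at 118, 108 and 230 in WT against 41.2, 37.1 and 80.0 in KO. Both had lower values in every KO library, did not pass with limma (adjusted p = 0.0622 and 0.0658) and were called by DESeq2 (9.9e-04 and 0.00497).

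In a list of 20 other basal keratinocyte genes 16 were tested, 3 rose, 0 fell and 13 did not pass with limma. Of all tested genes limma called 1.22% higher and 0.583% lower. The median log2 fold change of the list was 0.51, and 15 of the 16 were positive. The exception was Trp63 (-0.58), lower in every KO library and given below among the regulators. With edgeR 2 were called higher (1.14% of all genes). DESeq2 called 4 higher (1.68% of all genes), the 3 that rose with limma and Itga6 (DESeq2 adjusted p = 0.0326, limma 0.132), and 0 lower (1.29%). Sox2 and Cav1 of that list were listed at 0. Ccnd1, the D-type cyclin that starts the cell cycle, rose from 68.8, 94.2 and 78.4 to 444, 250 and 216, by 1.84 ± 0.27 (SE) on the log2 scale (limma adjusted p = 0.00773). It passed whichever library was left out (highest adjusted p = 0.0304). Itgb4, the integrin subunit that ties the basal keratin network to the basement membrane, rose from 339, 366 and 317 to 1008, 742 and 589 (limma adjusted p = 0.0194). Its call was lost when WT replicate 1 or 2, or KO replicate 1, was left out (highest adjusted p = 0.0812), and with no intensity trend (0.0806). Igfbp2, an IGF-binding protein, rose by 0.95 on the log2 scale (0.0468), a call that held without KO replicate 3 alone of those fits. Igfbp2 also missed the threshold with edgeR (adjusted p = 0.0515), equal library totals, no intensity trend and the library name style as a covariate.

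In a list of 26 genes of stressed epithelium and alarmins 22 were tested, 2 rose, 0 fell and 20 did not pass with limma. The median log2 fold change was 0.41, and 13 of the 22 were positive. Of all tested genes limma called 1.22% higher and 0.583% lower, and DESeq2 1.68% higher and 1.29% lower. DESeq2 called 5 higher and 1 lower: Sprr1b, Hbegf, Areg, Sprr1a and Sprr2h were higher, and Serpinb3a, a serpin of squamous epithelium, was lower (-1.17, DESeq2 adjusted p = 0.00248, limma 0.143). Sprr1b, a cornified envelope precursor, rose from 3994, 4258 and 5500 to 11297, 12072 and 9276 (limma adjusted p = 0.0157). Hbegf, an EGF receptor ligand, rose from 377, 376 and 413 to 608, 661 and 709 (0.0420). When 1 library was left out, both calls held only if it was WT replicate 3. With the library name style as a covariate both were lost (limma adjusted p = 0.0551 for Sprr1b and 0.0989 for Hbegf). Hbegf was also lost with equal library totals, no intensity trend and the replicate number as a block. Areg, another EGF receptor ligand, had 1.04 ± 0.26 (SE; limma adjusted p = 0.0838).

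Over all tested genes limma called 1.8%, edgeR 1.73% and DESeq2 2.98%, and 13.5% had an unadjusted limma p under 0.05. At these shares 0 called in a list as short as the next ones says little about it. Of 22 tested regulators of keratin genes 0 passed with limma, edgeR or DESeq2, and 1 had an unadjusted limma p under 0.05. That was Trp63, the master transcription factor of stratified epithelium and a known activator of Krt5 and Krt14, at 694, 791 and 599 in WT against 394, 469 and 531 in KO, or -0.58 ± 0.18 (SE) on the log2 scale (limma adjusted p = 0.170). Every KO library lay below every WT library. Next was Notch1 (0.58, limma adjusted p = 0.463). Of 14 tested proteins that anchor or crosslink keratin filaments 0 passed with limma, edgeR or DESeq2 and 2 had an unadjusted p under 0.05, the desmosomal cadherins Dsc2 (0.46) and Dsg3 (0.49). Of 12 tested suprabasal differentiation genes 0 passed with limma or edgeR, 4 had an unadjusted p under 0.05 and DESeq2 called 1 lower, Crnn, a cornified envelope protein of mucosa (log2 fold change -1.03, limma adjusted p = 0.0757). Of these 4, Crnn, Flg (-0.71, limma adjusted p = 0.230) and Dsg1a (-0.56, 0.197) were lower. The remaining one was Casp14, a protease of cornifying cells, at 0.92 (0.127). Over the 12, 6 were positive and the median was -0.14.

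RefSeq promoter windows (GRCm38.p6) from 250 bases before to 50 after a start were listed for Krt5, Krt75 and Krt14. The Krt14 window lies at the start of a shorter transcript inside the gene. The motifs searched on both strands were the TATA box (letters TATAAA), the site of AP-1 (letters TGANTCA), the site of AP-2 (letters GCCNNNGGC) and the site of Sp1 (letters GGGCGG). The only match was an Sp1 motif in Krt75, at position -52 from the start on the opposite strand. Only these letters were searched, so a variant form of a site, such as another form of the TATA box, was not counted. Of 32851 windows of this length 13.6% hold the letters TATAAA, 7.81% the AP-1 motif, 16.6% the AP-2 motif and 35.7% the Sp1 motif. Of 37 keratin windows 19 hold TATAAA, 2 the AP-1 motif, 7 the AP-2 motif and 2 the Sp1 motif.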

How the data were processed

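The authors deposited normalised read counts of 55421 genes, a signal made by dividing the reads of a library by 1 size factor, per the file headers and the values. The submitters' processing notes name FastQC, STAR, featureCounts and DESeq2 but no versions. For build, annotation and strand setting the entry is "not given in the sources used here". A deposited table of called genes holds log2 fold changes, a Wald score, and p-values with their q-values, as per the file headers. Each value was a whole multiple of 1 step per library (100% within 0.01 of a whole read), which gave back the reads. A 0 allows up to 3 reads, a normalised value of 2.59 to 3.92, counting error alone. Columns left unmatched numbered 0. The 3192 rows without a symbol were kept.

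Values were taken as log2(value + 1), which understates changes of low genes. The 10987 genes that reached 10 in 3 or more libraries were tested, KO against WT, two-sided, using limma 3.58.1 (R 4.3.3). An intensity trend was set and p-values were adjusted by Benjamini-Hochberg, with calls at 0.05. Recovered reads were tested with edgeR 4.0.16 and DESeq2 1.42.0. All were tested on simulated data first. Ratios of 6 pairs were compared by exact permutation. Alternatives covered pseudocount, filter, scaling, variance model, replicate number, name style and leaving out each library. Libraries come from separate mice per the labels, and replicates had a Spearman correlation of 0.905 to 0.916 across genes. The keratins and lists were chosen with earlier results of these data known. Named are the 8 keratins, other keratins that were called or are neighbours of the 8, genes of the nearest pattern and, per list, called genes and the 2 with the smallest p. Krt24, Krt79, Krt83, Krt31, Krt81, Itga6, Areg, Sprr1a, Sprr2h, Serpinb3a, Flg, Dsg1a, Dcn, Col1a1 and the keratins that check the tissue (Krt13, Krt4, Krt8 and Krt18) were named after their values were seen. The sequences of the type II keratins are not reported here.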

Additional observations from a re-analysis of the deposited data

How the results depend on the processing

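No keratin of the 8 changed direction in any of 144 alternative values (18 for each), of which 122 stayed on their side of the threshold, 15 passed where the reported fit did not and 7, all of Krt17, no longer passed. The number of the 8 called was 1 as reported, 3 with equal library totals, quantile normalisation or robust variance moderation, 2 with edgeR, 7 with DESeq2, 0 with the name style as a covariate and between 0 and 1 when 1 library was left out. The number of genes called was 198 as reported, 82 with the name style as a covariate, 371 with DESeq2 and between 68 and 186 when 1 library was left out (80 if WT replicate 2 was the one, and 75, 112 and 68 for KO replicates 1, 2 and 3). With the replicate number as a replicate block 178 genes and 2 of the 8 keratins passed, Krt5 (adjusted p = 0.0392) and Krt17. With no intensity trend the 1 keratin called was Krt6b in place of Krt17. The labels do not say whether the numbers pair the mice. Same-numbered libraries had deviations from their group mean correlated at -0.25, 0.026 and 0.28. WT replicate 1 correlated best with KO replicate 2 (0.41). With 3 libraries per group these values cannot settle whether the mice were paired. The cause of the differences between settings was not tested. All 48 alternative pair ratios moved by less than the larger group SD. Leaving out 1 of 3 libraries cannot move a mean by more than that, so this says nothing about robustness. The sign changed for Krt14 to Krt5 (0.08 as reported, -0.12 without WT replicate 2) and Krt16 to Krt6a (0.02 and -0.06). The other pairs kept their sign.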
